A study of Mus musculus with 6 samples.

Results

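Of the 35976 genes listed in each deposited table, 9 were taken here by symbol: the paired-box genes Pax7 and Pax3, the sine oculis homeobox genes Six2, Six4 and Six5, and the Eya genes Eya1, Eya2, Eya3 and Eya4. They were compared between satellite cells of NF-YA cKO mice and of NF-YA fl/fl mice. Pax3 and Pax7 are transcription factors that mark the progenitors of skeletal muscle: Pax3 acts mainly in the embryo, and Pax7 in the satellite cells that repair adult muscle. Sine oculis proteins are homeodomain factors that bind the MEF3 motif in muscle genes such as Myog. Eya proteins carry no DNA-binding domain; they are phosphatases that bind sine oculis proteins and turn them into activators, and together with Pax and Dach proteins they form a network that acts upstream of the myogenic regulators.

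The series held 6 libraries of total RNA from mouse satellite cells, 3 of NF-YA cKO and 3 of NF-YA fl/fl. NF-YA, encoded by Nfya, is the sequence-specific subunit of NF-Y, a trimer that binds CCAAT boxes in promoters. NF-YA cKO mice carried floxed Nfya alleles (LoxP sites in introns 2 and 8) and the Pax7-CreERT2 driver, so that recombination is limited to cells that express Pax7 or descend from them; NF-YA fl/fl mice carried the floxed alleles without Cre. Both groups received tamoxifen (20 mg/ml) and are labelled as 5 to 7 weeks old, a range that differs from the one in the study's methods. The cells were enriched from hindlimb muscle by magnetic depletion of other cell types and cultured in growth medium with FGF-2, so the libraries describe cultured satellite cell-derived myoblasts rather than quiescent cells. The labels do not say that each library came from a separate mouse, so the p-values measure the spread between these libraries, which may be technical.

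Several facts of the libraries bear on every value below. Expected counts summed to 31040863 to 41118984 in the NF-YA cKO libraries and to 26936230 to 33316730 in the NF-YA fl/fl libraries. A transcript entry for the deleted allele took 22.3 to 34.2% of the Nfya counts in NF-YA cKO and 0 counts in NF-YA fl/fl, and Nfya as a whole differed by −0.06 on the log2 scale (adjusted p = 0.814). The NF-YA cKO libraries correlated with each other at 0.995 to 0.996 (Pearson, log2 of CPM, read counts scaled to the same library total), whereas NF-YA fl/fl replicate 3 correlated with its own group at only 0.964 and 0.975. Xist stood at 836 to 852 CPM in NF-YA cKO and at 0.31 to 0.47 CPM in the NF-YA fl/fl libraries, with 4 Y-linked genes reversed, although the study's methods name male mice; differences of sex and of genotype therefore cannot be told apart. Of the markers of satellite cells and myoblasts, Myod1, Myf5, Cdh15, Vcam1, Itga7, Sdc4 and Des were expressed in all libraries, while Chrdl2 and Calcr were near 0, and Cdh15 and Des were called lower in NF-YA cKO. All 8 markers of differentiated muscle were lower in NF-YA cKO (summed level 45.9 to 129 CPM against 8188 to 10775 CPM), and all 6 macrophage markers were higher (131 to 262 CPM against 4.07 to 10.9 CPM). Of other markers, 2 of 6 for fibro-adipogenic progenitors and 1 of 4 for endothelium were called higher, where 4.65% of all tested genes were. For tendon cells 1 of 4 and for pericytes and smooth muscle 1 of 4 were called lower, where 7.67% of all tested genes were. Other genes of these lists ran the other way without a call: Ly6a (log2 fold change −2.05), Pdgfra (−0.18), Tnmd (0.75), Mkx (0.45), Fmod (0.32) and Myh11 (0.76). The summed level of the fibro-adipogenic markers overlapped, at 172 to 208 CPM in NF-YA cKO and 37.7 to 209 CPM in NF-YA fl/fl. The part of these marker differences in the values below was not tested, and in bulk RNA fewer cells of a type and less RNA per cell cannot be told apart.

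The promoters of the genes are shown because the deleted factor reads a short sequence, CCAAT, and sine oculis factors read another, MEF3. The RefSeq promoter table (GRCm38.p6) held 6 of the 9 genes in 8 windows: Pax7, Six2, Six4, Six5, Eya3 and Eya4 were found, with Pax3, Eya1 and Eya2 not among them. Each sequence below is the 250 bases before an annotated start, 5′ to 3′ on the strand of the gene, in lower case with any CCAAT or MEF3 match in capitals; all 4 genes lie on the minus strand.
Pax7 (chr4:139832969-139833218, minus strand): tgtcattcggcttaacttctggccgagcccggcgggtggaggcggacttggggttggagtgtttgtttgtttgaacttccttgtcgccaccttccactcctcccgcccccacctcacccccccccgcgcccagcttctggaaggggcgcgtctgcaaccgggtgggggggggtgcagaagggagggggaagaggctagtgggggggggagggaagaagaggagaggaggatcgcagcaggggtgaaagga
Eya4 (chr10:23349944-23350193, minus strand): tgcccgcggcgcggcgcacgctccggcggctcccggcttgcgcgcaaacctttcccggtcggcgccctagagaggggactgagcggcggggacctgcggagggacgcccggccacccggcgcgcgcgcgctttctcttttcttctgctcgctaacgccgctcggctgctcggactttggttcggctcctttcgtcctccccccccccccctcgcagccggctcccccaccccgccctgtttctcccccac
Six2 (chr17:85688255-85688504, minus strand): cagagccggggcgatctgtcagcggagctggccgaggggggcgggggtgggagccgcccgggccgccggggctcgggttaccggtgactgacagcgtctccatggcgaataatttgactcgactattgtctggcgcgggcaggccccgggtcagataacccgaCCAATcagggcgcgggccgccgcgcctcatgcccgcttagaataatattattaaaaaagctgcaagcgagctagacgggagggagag
Six4, upstream start (chr12:73113426-73113675, minus strand): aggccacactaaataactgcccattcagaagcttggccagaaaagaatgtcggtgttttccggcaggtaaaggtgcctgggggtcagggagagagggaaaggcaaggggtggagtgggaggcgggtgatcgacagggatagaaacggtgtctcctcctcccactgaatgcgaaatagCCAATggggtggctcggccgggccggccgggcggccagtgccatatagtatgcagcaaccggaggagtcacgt
Six4, downstream start (chr12:73113246-73113495, minus strand): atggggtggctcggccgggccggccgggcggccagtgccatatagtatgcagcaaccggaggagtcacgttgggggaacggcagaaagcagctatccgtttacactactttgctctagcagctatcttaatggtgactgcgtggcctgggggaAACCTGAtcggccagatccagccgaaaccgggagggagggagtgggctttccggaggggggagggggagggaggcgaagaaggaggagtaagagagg
CCAAT was searched on both strands (CCAAT or ATTGG) over 250 bases before to 50 bases after the start. It was present in the Six2 window, 87 bases before the start, and in the window of the upstream Six4 start, 73 bases before it. MEF3 was searched as TCAGGTT or AACCTGA and was present only in the window of the downstream Six4 start, 97 bases before it. Over all 32851 windows in the table, 37.4% held CCAAT and 4.07% held MEF3. The windows of Pax7, Six5, Eya3 and Eya4 held neither motif as spelled here. The loci of Pax7, Eya4 and Six4 reach beyond these windows, to 139833530, 23350838 and 73114031. The bases before those outer ends were not searched. The match is a description of letters, and binding was not measured in these files.

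Across the 9 genes, 1 passed the test as changed: Eya4 fell in NF-YA cKO. For Pax7 and Eya1 the lowest NF-YA cKO library lay above the highest NF-YA fl/fl library, Pax7 with an adjusted p under the limit but a fold just short of it, and Eya1 with a fold past the limit but an adjusted p just short of it. The other 6 genes overlapped between genotypes. A gene was called where its adjusted p (edgeR quasi-likelihood test, Benjamini-Hochberg over 17348 genes) was under 0.01 and its log2 fold change over 1 in size. By that rule 0 of the 9 were called higher, where 4.65% of all tested genes were, and 1 of the 9 was called lower, where 7.67% of all tested genes were. At an unadjusted p under 0.05, 2 of the 9 were higher and 1 was lower, beside 24.6% and 24.1% of all genes. DESeq2 called 1 higher and 1 lower, beside 5.68% and 10.4%. Without the fold limit, 1 was called higher and 1 lower, beside 10.3% and 9.97% of all genes. Every NF-YA cKO library lay above every NF-YA fl/fl library for 2 of the 9 and below for 1 of the 9, beside 29.1% and 26.2% of all genes. The median log2 fold change was 0.03 for the 9 genes and −0.02 for all tested genes.

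**Figure D1:**
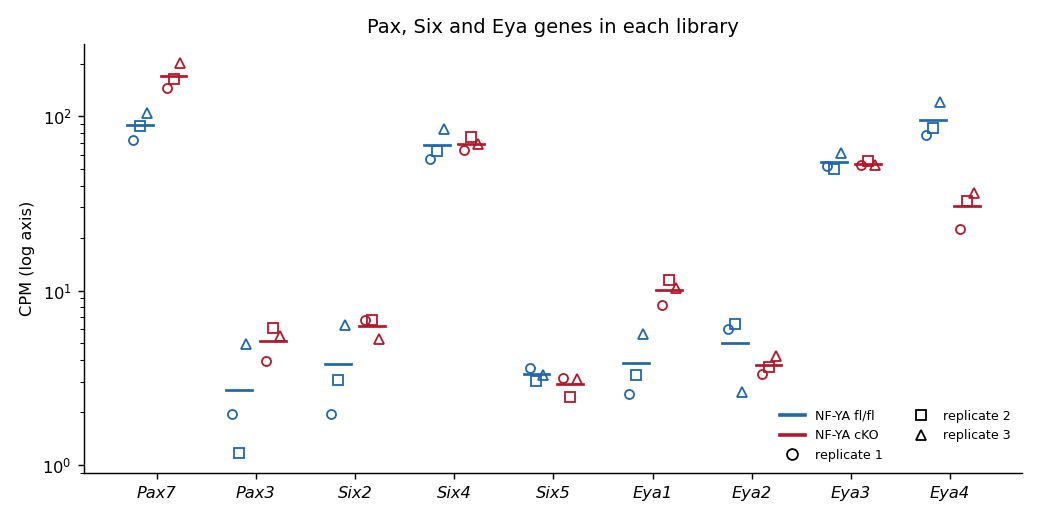
Level of each gene in each library, in CPM (log axis), with points for libraries (shape gives the replicate) and bars for the mean of the 3 libraries of a genotype. Pax7 and Eya1 lie higher and Eya4 lower in all 3 NF-YA cKO libraries, and NF-YA fl/fl replicate 3 lies away from the other NF-YA fl/fl libraries for Pax3, Six2 and Eya2.

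Pax7 (chromosome 4, 139737059 to 139833530, minus strand, GRCm38), the factor that maintains satellite cells, measured 145, 165 and 201 CPM in NF-YA cKO and 73.5, 87.5 and 105 CPM in the NF-YA fl/fl libraries. The groups did not overlap, and the mean was 171 ± 28.4 CPM against 88.7 ± 15.8 CPM (SD, n = 3 each). The log2 fold change was 0.94 ± 0.17 (SE; edgeR adjusted p = 0.0062), which passed the limit on p and missed the limit on fold. Pax7 is also the gene whose regulatory region drives Cre in NF-YA cKO, and the Cre allele is absent from NF-YA fl/fl; genotype at Nfya and the presence of the driver cannot be told apart in this comparison.

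Pax3 (chromosome 1, 78101267 to 78197136, minus strand), which guides embryonic muscle progenitors and also acts in the neural crest, ranked near the bottom of the 9 in TPM. It measured 3.92, 6.11 and 5.45 CPM in NF-YA cKO and 1.95, 1.16 and 4.95 CPM in the NF-YA fl/fl libraries. The groups overlapped because NF-YA fl/fl replicate 3 lay within the NF-YA cKO range, and the log2 fold change of 0.94 ± 0.51 (SE) did not pass (adjusted p = 0.183). Without that library Pax3 was called higher, at a log2 fold change of 1.74 (edgeR adjusted p = 0.0045), whereas without NF-YA fl/fl replicate 2 the value was 0.57 (edgeR adjusted p = 0.327). Sox10, a neural crest factor, was higher too, at 2.87, 4.71 and 4.35 CPM in NF-YA cKO against 1.34, 0.83 and 1.56 CPM (log2 fold change 1.68, edgeR adjusted p = 0.0071), and its part in the Pax3 values was not tested. The ratio of Pax7 to Pax3 TPM was 25.4, 18.2 and 24.3 in NF-YA cKO and 25.3, 54.2 and 14.2 in NF-YA fl/fl, with overlapping groups (exact permutation test, two-sided, p = 0.8; 0.1 is the smallest p that 3 libraries against 3 can give).

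Among the homeobox genes, Six4 (chromosome 12, 73099609 to 73114031, minus strand), which acts in embryonic myogenesis, had the highest TPM. It measured 64.1, 75.7 and 69.9 CPM in NF-YA cKO and 56.8, 63.5 and 85.1 CPM in the NF-YA fl/fl libraries, and the groups overlapped fully. Its log2 fold change was 0.03 ± 0.16 (SE, edgeR adjusted p = 0.899), and its sign turned in 6 of 17 alternatives. Among the 17, an adjusted p under 0.05, no fold limit and the test of the fold itself (glmTreat) reuse the main fold change. The sign of a gene cannot turn in those.

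Six2 (chromosome 17, 85662736 to 85688254, minus strand), best known for keeping kidney progenitors undifferentiated, measured 6.73, 6.80 and 5.26 CPM in NF-YA cKO and 1.95, 3.06 and 6.31 CPM in the NF-YA fl/fl libraries. The third NF-YA fl/fl library again lay within the NF-YA cKO range. A log2 fold change of 0.73 ± 0.41 (SE) did not pass (adjusted p = 0.200), and it became 1.30 without that library (edgeR adjusted p = 0.0058), which was a call, but 0.41 without NF-YA fl/fl replicate 1 (edgeR adjusted p = 0.400).

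Six5 (chromosome 7, 19094544 to 19098549, plus strand), whose promoter lies next to the end of the myotonic dystrophy kinase gene Dmpk, was low in both genotypes. It measured 3.12, 2.44 and 3.10 CPM in NF-YA cKO and 3.59, 3.0 and 3.29 CPM in the NF-YA fl/fl libraries, with overlap and a log2 fold change of −0.19 ± 0.20 (SE; adjusted p = 0.479). Dmpk ends 722 bases before Six5 begins. Dmpk measured 135, 178 and 175 CPM in NF-YA cKO and 234, 221 and 425 CPM in the NF-YA fl/fl libraries. The Dmpk groups did not overlap, but the difference of −0.85 ± 0.27 on the log2 scale was not called (adjusted p = 0.0424).

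Eya4 (chromosome 10, 23102962 to 23350838, minus strand), a member linked in people to hearing loss and heart muscle disease, measured 22.7, 32.6 and 36.3 CPM in NF-YA cKO and 78.2, 86.1 and 122 CPM in the NF-YA fl/fl libraries. Every NF-YA cKO library was lower than every NF-YA fl/fl library, and the highest NF-YA cKO value was well under the lowest NF-YA fl/fl value. Eya4 had a log2 fold change of −1.64 ± 0.23 (SE; edgeR adjusted p = 0.0025). Eya4 was called in 15 of 17 alternatives, with log2 fold changes of −1.81 to −1.43. Among the 15, an adjusted p under 0.05 and no fold limit are the main fit read at looser limits, where Eya4 is called by construction. Eya4 was not called without NF-YA cKO replicate 2 (edgeR adjusted p = 0.0147). Nor was it called when the fold itself was tested against 1 on the log2 scale (glmTreat adjusted p = 0.0497).

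Eya1 (chromosome 1, 14168953 to 14311035, minus strand), the member mutated in branchio-oto-renal syndrome, ran the other way. It measured 8.26, 11.5 and 10.3 CPM in NF-YA cKO and 2.56, 3.27 and 5.63 CPM in the NF-YA fl/fl libraries, and the groups did not overlap. The log2 fold change of 1.39 ± 0.31 (SE) narrowly missed the limit on p (edgeR adjusted p = 0.0131). Eya1 was called in 4 of 17 alternatives, among them DESeq2 (log2 fold change 1.38, adjusted p = 0.000163) and the fit without NF-YA fl/fl replicate 3 (log2 fold change 1.77, edgeR adjusted p = 0.0010). An adjusted p under 0.05, also among the 4, is the main fit read at a looser limit, where Eya1 is called by construction.

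Eya3 (chromosome 4, 132639025 to 132724765, plus strand), which is expressed broadly across tissues, had the smallest standard error of the 9. It measured 52.3, 55.2 and 52.5 CPM in NF-YA cKO and 52.0, 49.9 and 61.5 CPM in the NF-YA fl/fl libraries. Eya3 had a log2 fold change of −0.03 ± 0.11 (SE; adjusted p = 0.844), and its sign turned only without NF-YA fl/fl replicate 3 among the 17 alternatives.

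Eya2 (chromosome 2, 165595028 to 165771727, plus strand), a partner of sine oculis proteins in muscle progenitors, measured 3.32, 3.62 and 4.23 CPM in NF-YA cKO and 6.0, 6.39 and 2.61 CPM in the NF-YA fl/fl libraries. Here NF-YA fl/fl replicate 3 was the lowest of all 6 libraries, whereas the other two NF-YA fl/fl libraries were the highest. The log2 fold change of −0.43 ± 0.34 (SE) did not pass (adjusted p = 0.360), and without that library it was −0.74 (edgeR adjusted p = 0.0127), still short of a call, while without NF-YA fl/fl replicate 2 it was −0.21 (edgeR adjusted p = 0.667).

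**Figure D2:**
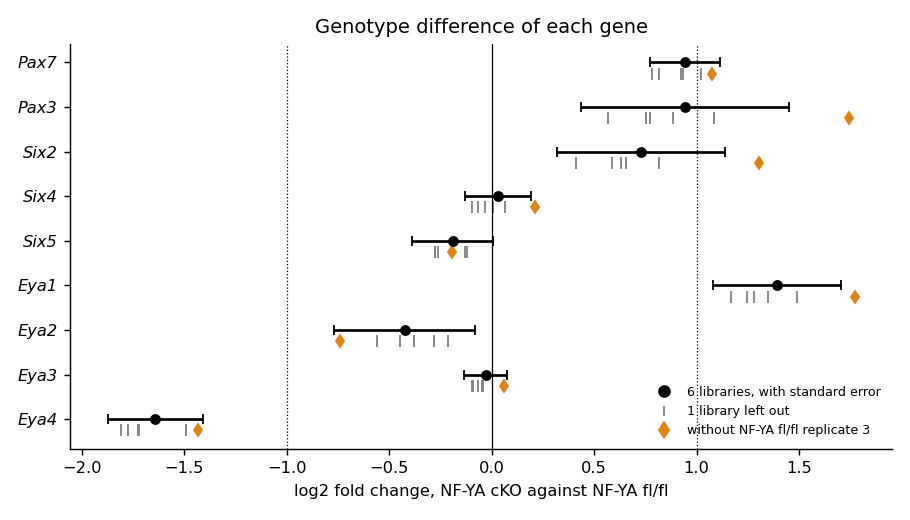
Log2 fold change of each gene, NF-YA cKO against NF-YA fl/fl, from edgeR on all 6 libraries (black point, bar for the standard error) and with 1 library left out (grey ticks, orange diamond for NF-YA fl/fl replicate 3); dotted lines mark the fold limit of 1. Eya4 stays below −1 in every such fit, and leaving out NF-YA fl/fl replicate 3 puts Pax7, Pax3 and Six2 past 1. Leaving out NF-YA cKO replicate 1 also puts Pax7 (1.02) and Pax3 (1.09) past 1, with neither called.

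The replicate spread differed between genotypes. The coefficient of variation of CPM was 3.01 to 23.0% across the 9 genes in NF-YA cKO and 8.95 to 74.5% in NF-YA fl/fl, and it was larger in NF-YA fl/fl for 8 of the 9. The share over all genes was not computed. Over all tested genes, libraries correlated at 0.964 to 0.988 within NF-YA fl/fl and 0.995 to 0.996 within NF-YA cKO, so the wider spread was not particular to the 9. Pax3 and Six2 had the widest spread in NF-YA fl/fl, with NF-YA fl/fl replicate 3 at the top for both. With that library left out, 4 of the 9 were called higher (Pax7, Pax3, Six2 and Eya1) and 1 lower (Eya4), beside 4.97% and 9.81% of all genes in that fit. Myf5 and Myod1 stood high in the same library (61.6 and 1146 CPM, against 21.3 and 12.5 CPM and against 361 and 295 CPM in the other NF-YA fl/fl libraries). Pdgfra, a marker of fibro-adipogenic progenitors, stood low (21.6 CPM against 132 and 147 CPM). Ly6a, Dpt, Dcn and Lum of that list were lowest there too, but Dpp4 was highest (3.12 CPM against 1.76 and 2.35 CPM). Among pericyte and smooth muscle markers, Pdgfrb (56.5 CPM against 276 and 304 CPM), Myh11 and Rgs5 also stood low, but Acta2 did not. Their part in the spread was not tested.

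Levels were compared between genes per length, in TPM, which sets the length-scaled level of all genes in a library to the same total. In NF-YA cKO the order ran from Pax7 (35.2 ± 6.60 TPM, SD, n = 3) through Eya3 (14.6 ± 0.85), Six4 (11.9 ± 0.44), Eya4 (6.43 ± 1.51), Six2 (3.71 ± 0.52), Eya1 (2.57 ± 0.11), Eya2 (1.80 ± 0.27) and Pax3 (1.57 ± 0.27) to Six5 (1.19 ± 0.25). Each of the first 6 was above the next gene in all 3 libraries, with no overlap of their ranges. Eya2 was above Pax3 in 2 of 3 libraries and Pax3 above Six5 in 2 of 3, but these were not the same libraries. In NF-YA fl/fl the order was Eya4 (22.2 ± 3.52 TPM, SD, n = 3), Pax7 (19.4 ± 3.69), Eya3 (16.1 ± 2.79), Six4 (12.4 ± 1.92), Eya2 (2.73 ± 1.5), Six2 (2.21 ± 0.99), Six5 (1.42 ± 0.20), Eya1 (0.98 ± 0.29) and Pax3 (0.80 ± 0.48). Each of the first 4 was above the next gene within all 3 libraries there, although their ranges over libraries overlapped except between Six4 and Eya2. Some margins were thin: Pax7 stood at 15.95 TPM and Eya3 at 15.94 TPM in NF-YA fl/fl replicate 1. In NF-YA fl/fl replicate 3 Eya3 stood at 13.37 TPM and Six4 at 13.06 TPM. Each later pair of neighbours kept its order in 2 of 3 libraries. Eya4 stood above Pax7, Eya3 and Six4 within every NF-YA fl/fl library and below all 3 genes in every NF-YA cKO library.

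The make-up and the sum of the Eya transcripts were compared by TPM. Summed over the 4 genes, Eya TPM was 24.8, 23.8 and 27.6 in NF-YA cKO and 38.0, 49.0 and 39.1 in NF-YA fl/fl. Eya4 held 21.1, 24.9 and 29.5% of that sum in NF-YA cKO and 48.1, 51.0 and 59.9% in NF-YA fl/fl. Eya3 held 62.0, 57.6 and 53.2% against 42.0, 38.7 and 34.2%, so the leading Eya gene was Eya3 in every NF-YA cKO library and Eya4 in every NF-YA fl/fl library. Eya1 held 9.92, 10.8 and 9.68% against 1.76, 2.14 and 3.15%. The sum and these 3 shares did not overlap between genotypes, and each reached p = 0.1 in the exact two-sided permutation test, the smallest value 3 libraries against 3 allow. The share of Eya2 overlapped (7.08 ± 0.49% against 6.38 ± 3.13%, SD, n = 3; exact permutation p = 1). Since shares add up to a fixed whole, a lower Eya4 share raises the others by construction. The ratio of Eya4 to Eya1 TPM, a pair picked after the values were seen, was 2.13, 2.31 and 3.04 in NF-YA cKO and 27.2, 23.8 and 19.0 in NF-YA fl/fl.

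**Figure D3:**
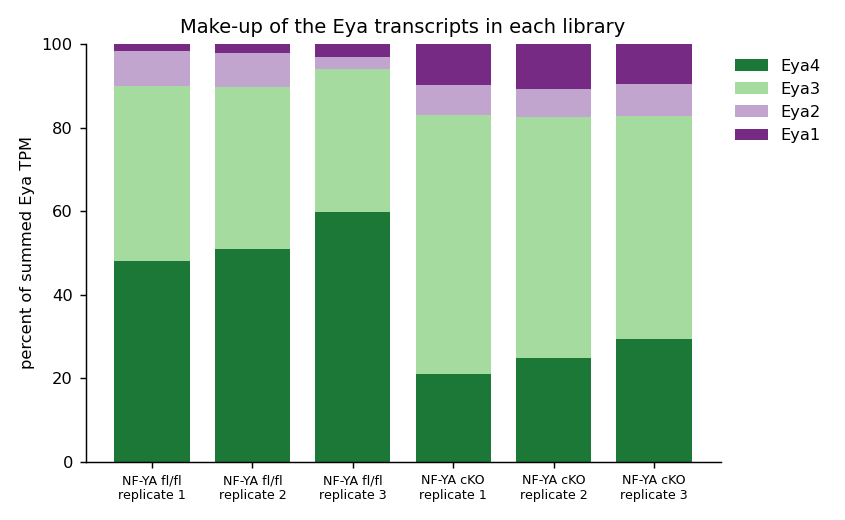
Share of each Eya gene in the summed TPM of Eya1, Eya2, Eya3 and Eya4, in percent, with 1 stacked bar per library. Eya4 fills 48.1 to 59.9% of the bar in the NF-YA fl/fl libraries and 21.1 to 29.5% in the NF-YA cKO libraries.

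The deposited transcript tables split each gene into RefSeq transcripts. Of 52 transcripts listed for the 9 genes, 36 held at least 5% of the TPM of their gene in either genotype. The shares of 7 of the 36 (19.4%) did not overlap between genotypes, 4 above and 3 below in NF-YA cKO, beside 20.7% of 34064 transcripts of all genes, so the share of non-overlapping transcripts was near the background. The smallest p was 0.1 (exact permutation test), or 0.514 after adjustment over the 36, and none passed. RSEM divides reads among transcripts that share most of their sequence, and that division is an estimate.

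For Eya4, transcript NM_010167.4 (4099 nt) held 7.59, 2.13 and 0.89% of the TPM of the gene in NF-YA cKO and 18.1, 18.8 and 18.8% in NF-YA fl/fl. In level it was listed at 0.40, 0.13 and 0.07 TPM against 3.3, 4.7 and 4.39 TPM. The transcript with the largest mean share, XM_006512522.3 (5477 nt), held 41.0, 46.3 and 33.0% against 29.3, 21.8 and 24.96%, yet its level was lower in NF-YA cKO too, at 2.15, 2.75 and 2.68 TPM against 5.34, 5.45 and 5.84 TPM. Both were lower in level in all 3 NF-YA cKO libraries; whether they differed in the size of the drop was not tested. XM_017313799.1 (6072 nt) held 1.86, 0 and 2.54% against 9.58, 4.54 and 6.64%.

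For Six5, whose level as a gene overlapped, NM_011383.1 (2853 nt) held 49.2, 33.4 and 44.3% in NF-YA cKO against 64.6, 66.6 and 58.0% in NF-YA fl/fl, and XM_006539694.3 (2887 nt) held 40.4, 52.2 and 39.7% against 29.9, 22.0 and 25.8%. These levels were all near or under 1 TPM. For Eya3, NM_210071.2 (5160 nt) held 68.7, 68.4 and 67.3% against 53.3, 62.1 and 66.1%. For Eya2, NM_010165.3 (2460 nt) held 9.45, 27.9 and 6.05% in NF-YA cKO and was listed at 0 in all 3 NF-YA fl/fl libraries; it is 1 nt longer than NM_001271963.1 (2459 nt), which held 28.7 to 54.7% and 47.6 to 77.3%. The Pax7 transcripts XM_006538629.1 (5361 nt) and XM_006538631.1 (5352 nt) shared the gene almost evenly, at 46.9 to 49.1% and 47.4 to 49.0% in NF-YA cKO and at 45.9 to 55.8% and 36.3 to 50.5% in the NF-YA fl/fl libraries. Both Pax7 transcripts overlapped between genotypes in their shares. The share of Pax3 transcript NM_001159520.1 (3376 nt) ranged from 31.6 to 60.7% in NF-YA cKO and between 9.36 and 51.3% in the NF-YA fl/fl libraries, at the low level of that gene. For Six4, NM_011382.2 (5572 nt) held 55.2 to 59.8% in NF-YA cKO and 58.5 to 65.9% in the NF-YA fl/fl libraries, and for Six2, NM_011380.2 (2108 nt) held 36.1 to 56.0% and 38.6 to 61.5%, both with overlap. Of the Eya1 transcripts only NM_001252192.1 (4214 nt) was above 0 in all 6 libraries, at 21.4 to 27.4% and 15.7 to 33.3%.

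**Figure D4:**
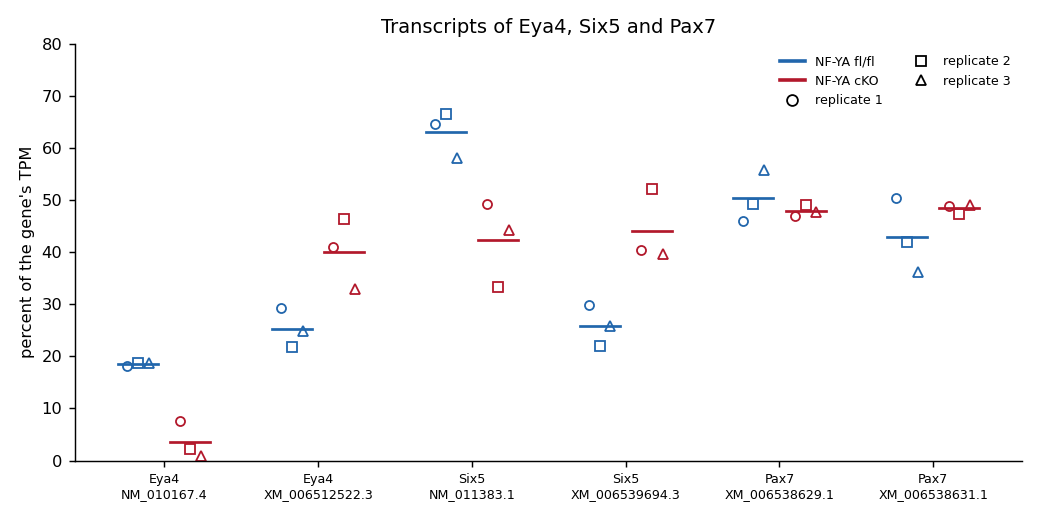
Share of 6 transcripts in the TPM of their gene, in percent, with points for libraries (shape gives the replicate) and bars for the mean of a genotype. The Eya4 transcript NM_010167.4 lies at 18.1 to 18.8% in the NF-YA fl/fl libraries and at 0.89 to 7.59% in NF-YA cKO, and the Pax7 transcripts overlap between genotypes.

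Partners of the network were low throughout. Dach1 and Dach2, cofactors that bind Eya proteins, Sobp, a cofactor of sine oculis proteins, and the homeobox genes Six3 and Six6 summed to 3.96 to 4.88 CPM in NF-YA cKO and to 3.16 to 7.73 CPM in the NF-YA fl/fl libraries. Of the 4 tested, 0 were called in either direction by edgeR, beside 4.65% and 7.67% of all genes. At an unadjusted p under 0.05, 0 were higher and 1 lower, beside 24.6% and 24.1% of all genes. DESeq2 called 0 higher and 1 lower, beside 5.68% and 10.4%. That gene was Six6, at 0, 0.024 and 0.16 CPM against 0.69, 0.92 and 0.47 CPM (log2 fold change −3.30 ± 0.78, SE; edgeR adjusted p = 0.0164), a fitted value that rests on few counts. Dach2 measured 0.64, 0.34 and 0.54 CPM against 1.91, 1.52 and 0.37 CPM, with overlap (adjusted p = 0.117). Dach1 overlapped likewise (adjusted p = 0.264).

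Pax7 recruits a histone H3 lysine 4 methyltransferase complex, and most of the 9 genes listed for it were expressed well. Dpy30, a small core subunit, rose from 13.6, 12.0 and 11.0 CPM in the NF-YA fl/fl libraries to 26.4, 27.9 and 25.6 CPM in NF-YA cKO (log2 fold change 1.13 ± 0.12, SE; adjusted p = 0.0010). Kmt2d, a catalytic subunit, fell from 306, 330 and 624 CPM to 159, 159 and 166 CPM (log2 fold change −1.38 ± 0.27, SE; adjusted p = 0.0083). These were the 2 of 9 called, 1 each way, beside 4.65% and 7.67% of all genes. Ash2l, another core subunit, differed by 0.65 on the log2 scale (adjusted p = 0.0017), under the fold limit. Wdr5 differed by 0.56 and Kmt2a by −0.64, with adjusted p of 0.0129 and 0.0128 that missed the limit. Paxbp1, which links Pax7 to the complex, and Carm1, which methylates Pax7, differed by 0.13 and 0.19 (adjusted p = 0.270 and 0.262). Rbbp5 and Kmt2b were not called either (adjusted p = 0.245 and 0.113). The median over the 9 was 0.19, beside −0.02 for all genes.

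Among 10 genes known as targets of Pax3 or Pax7, 1 rose and 1 fell, a share near that of all genes (4.65% and 7.67%). Met, the receptor for hepatocyte growth factor, rose from 56.7, 91.6 and 62.5 CPM in the NF-YA fl/fl libraries to 255, 306 and 315 CPM in NF-YA cKO (log2 fold change 2.05 ± 0.20, SE; adjusted p = 0.0007). Itm2a, a membrane protein of differentiating muscle, fell from 112, 69.7 and 117 CPM to 19.4, 19.5 and 22.5 CPM (log2 fold change −2.28 ± 0.21, SE; adjusted p = 0.0006). Fgfr4, a fibroblast growth factor receptor, measured 18.4, 18.5 and 22.0 CPM in NF-YA cKO against 40.4, 43.1 and 103 CPM, which did not overlap but missed the limit on p (adjusted p = 0.0126). Myf5, the myogenic regulator, measured 62.6, 51.0 and 52.0 CPM against 21.3, 12.5 and 61.6 CPM, and overlapped through NF-YA fl/fl replicate 3 (edgeR adjusted p = 0.272). Myod1 differed by −0.08 on the log2 scale (adjusted p = 0.908). Id3 differed by 0.89 and Plagl1 by 0.62 (adjusted p = 0.0300 and 0.0129), and Lbx1, Dmrt2 and Cxcr4 had adjusted p of 0.118 to 0.389. The median over the 10 was −0.26.

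Of 10 genes known as targets of sine oculis factors, 9 were tested (Sall1 was too low), 2 rose and 4 fell, beside 4.65% and 7.67% of all genes. The genes that fell are made by differentiating or mature muscle: Myog, which encodes myogenin, measured 10.7, 18.7 and 31.4 CPM in NF-YA cKO and 965, 584 and 1450 CPM in the NF-YA fl/fl libraries (log2 fold change −5.62 ± 0.54, SE; adjusted p = 0.0007). Tnnt3 and Tnni2, fast troponins, differed by −5.21 and −4.45 on the log2 scale (edgeR adjusted p = 0.0004 and 0.0011), and Pvalb, the calcium buffer parvalbumin, by −3.42 (edgeR adjusted p = 0.0073). The Pvalb value rests on few counts, at 0.064, 0.14 and 0.14 CPM in NF-YA cKO against 2.45, 0.89 and 0.64 CPM in NF-YA fl/fl. The genes that rose are not particular to muscle: Ccnd1, which encodes cyclin D1, measured 535, 651 and 534 CPM against 179, 340 and 263 CPM (log2 fold change 1.14 ± 0.23, SE; adjusted p = 0.0094), and Ezr, which encodes the membrane linker ezrin, measured 136, 119 and 102 CPM against 29.9, 41.3 and 34.2 CPM (log2 fold change 1.75 ± 0.16, SE; adjusted p = 0.0006). Aldoa, Eno3 and Slc12a2 differed by −0.51, −0.51 and −0.65 and were not called (adjusted p = 0.0130, 0.0707 and 0.0118). The median over the 9 was −0.65. Myog, Tnnt3 and Tnni2 are also 3 of the 8 markers of differentiated muscle given above, so the lists share these genes.

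**Figure D5:**
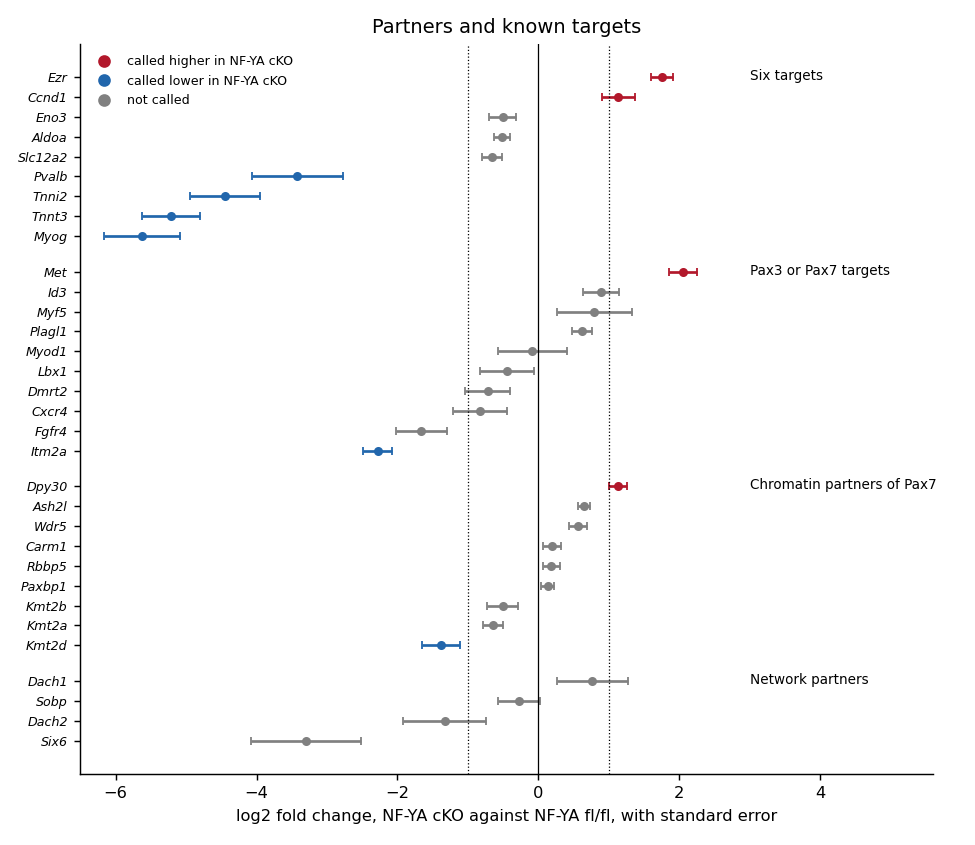
Log2 fold change (NF-YA cKO against NF-YA fl/fl) with standard error for the tested genes of 4 lists, coloured by the call at an adjusted p under 0.01 and a log2 fold change over 1 in size; dotted lines mark that fold. Called genes are Dpy30, Met, Ccnd1 and Ezr (higher) and Kmt2d, Itm2a, Pvalb, Tnni2, Tnnt3 and Myog (lower).

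The other Pax genes were close to undetected. Pax1, Pax2, Pax4, Pax5, Pax6, Pax8 and Pax9 summed to 0.51 to 0.85 CPM in NF-YA cKO and 0.78 to 2.06 CPM in the NF-YA fl/fl libraries, and Pax4 was at 0 in all 6 libraries, where a count of 0 allows up to 0.0705 to 0.115 CPM by counting error alone. Of the 3 tested, 0 were called in either direction by edgeR (beside 4.65% and 7.67% of all genes) and by DESeq2 (beside 5.68% and 10.4%). At an unadjusted p under 0.05, 0 were higher and 1 lower, beside 24.6% and 24.1% of all genes. The lower one was Pax9, at 0.16, 0.14 and 0.14 CPM in NF-YA cKO against 1.03, 0.45 and 0.17 CPM (adjusted p = 0.0645).

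The genes whose log2 CPM followed Eya4 most closely over the 6 libraries, among 9456 compared, were Lrp4 (Pearson r = 0.998), Serinc2 (0.998) and Arid4b (0.996). The 6 libraries share the genotype difference, so any gene that differs between genotypes can score high, and the values are given as a description. Lrp4 had a log2 fold change of −1.78, Serinc2 of −0.63 and Arid4b of −0.38. Thus Lrp4 alone among them differed by about as much as Eya4.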

How the data were processed

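Total RNA (500 ng) was prepared by the study with a stranded total RNA kit. Per the labels and the study's methods, reads were aligned by the authors with Bowtie2 to mm10 and quantified with RSEM; the Bowtie2 version is not given in the sources used here. The deposited tables hold expected counts, TPM and effective lengths per gene and per transcript, and the share of each transcript in its gene as a percent. Expected counts were rounded, and 17348 of 35976 genes with over 10 counts in at least 2 libraries were tested with edgeR 4.0.16 (quasi-likelihood test, TMM, R 4.3.3), Benjamini-Hochberg adjusted over all of them. CPM are TMM-scaled. The design followed the genotype labels, with no covariate. The code was tested on simulated data. The 9 genes and all lists were chosen with earlier results of these data known. Genes and transcripts that could be named were the 9 genes, their transcripts of at least 5% of the gene, the genes of the lists, and for each called gene the 3 genes (mean of at least 10 CPM) with the highest correlation. DESeq2 1.42.0, limma 3.58.1 on log2 TPM, other filters and thresholds, and leaving out each of the 6 libraries were alternatives. The labels do not say whether replicate numbers pair the samples, and the main test did not use them. Promoters and motifs came from RefSeq (GRCm38.p6), locus coordinates from RefSeq (GRCm38), and strands and overlapping genes from GENCODE (GRCm38). Overlapping annotated genes, all small RNAs, pseudogenes, long noncoding RNAs or unclassified entries, lay within 3 of the 9 loci. Protein sequences and some genes of the families are not analysed here, and some marker genes are not reported here.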

Additional observations from a re-analysis of the deposited data

How the results depend on the processing

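Of the 9 genes, 0 were called higher and 1 lower; 1 was called higher under DESeq2, with no filter and with an adjusted p under 0.05 (Eya1 each time), and 1 with no fold limit (Pax7), while leaving out 1 library at a time gave 0 to 4 higher and 0 to 1 lower, and testing against the fold limit (glmTreat) gave 0 lower. The 4 came without NF-YA fl/fl replicate 3, and the 0 lower without NF-YA cKO replicate 2. The cause was not tested.

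Over all genes, 806 were called higher and 1331 lower. Limma on log2(TPM + 1) gave 231 and 704, limma on log2(TPM + 0.1) gave 361 higher, glmTreat gave 97 and 510, no fold limit gave 1787 higher, and an adjusted p under 0.05 gave 2025 lower. Without 1 library they were 177 to 890 higher and 523 to 1684 lower, with fewer samples in each fit. Of the 41 genes in the lists of partners, targets and other Pax genes, 4 were called higher and 6 lower, beside 4.65% and 7.67% of all tested genes. Limma on log2(TPM + 1) and glmTreat each gave 2 higher, and leaving out 1 library gave 2 to 5 higher and 3 to 9 lower.

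The log2 fold change of Six4 turned from 0.03 to −0.0043 with filterByExpr, to −0.0487 and −0.0515 with limma, and to −0.0663, −0.0949 and −0.0305 without NF-YA cKO replicate 2, NF-YA fl/fl replicate 1 and NF-YA fl/fl replicate 2; its range over the left-out libraries was −0.0949 to 0.211. That of Eya3 ranged from −0.0983 to 0.0617 over the left-out libraries and turned only without NF-YA fl/fl replicate 3. Eya4 kept its direction in all 17 alternatives, although those that reuse the main fold change (an adjusted p under 0.05, no fold limit and glmTreat) could not turn it.

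With the replicate number as a block, 0 of the 9 genes were called higher and 1 lower (Eya4, log2 fold change −1.64), and 625 and 947 of all genes were. Residuals of same-numbered libraries correlated at 0.209, −0.103 and 0.051. The same number was the best match for NF-YA cKO replicate 1 (0.074 and −0.178 with the others) and replicate 3 (−0.116 and 0.018). Replicate 2 of NF-YA cKO correlated better with NF-YA fl/fl replicate 3 (0.150) than with its own number. With 3 libraries per genotype these values cannot decide whether the numbers pair the samples. The widest standard errors belonged to Pax3, Six2, Eya2 and Eya1, each at a few CPM in NF-YA fl/fl. Six5 was also at a few CPM there (mean 3.30) but had a smaller standard error (0.20).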
